A study of Mus musculus with 20 samples.

Results

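The effect of the Srsf2 P95H mutation on gene expression in red cell progenitors was measured here as a single average over 2 treatments. For each gene, the difference between P95H and control libraries under saline and the difference under phenylhydrazine were averaged, so that 10 P95H libraries were compared with 10 control libraries within treatment. All 20 libraries of the series entered. Of 10890 genes tested, 1148 were called in this averaged contrast (10.5%, adjusted p under 0.05), and 555 of them (5.1% of the genes tested) were called under neither treatment alone. These 555 genes, which only the pooled comparison picked out, are described first and in most depth.

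Both genotypes carried Mx1-Cre. The control mice were Mx1-Cre, and the mutant mice were Mx1-Cre Srsf2P95H/+, called P95H below. Mice of each genotype received PBS or 30 mg/kg phenylhydrazine (PHZ, which destroys red cells by oxidation) under the skin on days 0 and 1, and bone marrow was taken for sorting on day 4. Each of the 4 groups held 5 libraries. The sorted population, named CFU-E, was gated as live cells that lacked lineage markers, Sca-1, CD41, CD16/32 and CD150, had high c-Kit and carried CD105. The Mx1 promoter responds to interferon and is not restricted to red cell progenitors, so Cre can act in other blood cells and tissues as well. The sources used here give neither the age of the mice nor how and when Cre was induced. Each library name carries a number of its own, but no label says that each came from a separate mouse, and the p-values measure only the spread between these libraries.

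SRSF2 is a serine and arginine-rich protein that binds short exonic sequences and helps the spliceosome choose exons. Substitution of proline 95 is found in myelodysplastic syndromes and related leukaemias and shifts the binding preference of the protein from GGNG towards CCNG motifs, which changes the inclusion of many exons. CFU-E are late committed erythroid progenitors that depend on erythropoietin and, through STAT5, divide before haemoglobin accumulates. PHZ haemolysis forces these cells into rapid expansion. Values per gene, as used here, measure RNA levels and not splicing.

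The labelled cell type was checked against 15 erythroid progenitor markers, and all 15 were detected in every library. In P95H 2 of the 15 had a positive fold change, where 32.3% of all genes tested did. The median of the 15 was -0.10 against -0.04 over all genes, with 1 call, Car1, and 6 at an unadjusted p under 0.05. Of all 10890 genes tested, 2859 had an unadjusted p under 0.05 in the averaged contrast of limma. With TMM factors it was -0.06 against -0.002 over all genes. Gata1, the master erythroid transcription factor, ranged from 172 to 247 and Epor, the erythropoietin receptor, from 126 to 165 over the 20 libraries, in the deposited normalised units. The values have the form of TPM multiplied by 1 factor per library, and the reads behind each value are unknown. Granulocyte and monocyte markers were present too, none of 20 at 0 in any library, with a summed level of 460 to 968 in Mx1-Cre PBS, 572 to 2501 in P95H PBS, 153 to 1090 in Mx1-Cre PHZ and 162 to 605 in P95H PHZ. P95H PBS replicates 4 and 5 held the highest sums, 1853 and 2501. Of markers of lymphoid cells, macrophages and stromal or endothelial cells, 3 of 18, 1 of 12 and 1 of 11 reached the level needed for a test, and 0 of these 5 were called by limma (0 at an unadjusted p under 0.05). Of 5 megakaryocyte and platelet markers tested, Gp9, a subunit of the platelet receptor for von Willebrand factor, was higher (0.36, adjusted p = 0.0316). Gp9 lost its call in 9 of 20 fits that each left out 1 library (adjusted p up to 0.0615). Of 5 markers of stem and early progenitor cells, 3 had a positive fold change (median 0.11), and Myb was called lower (-0.24). Myb was called under 0 of 3 other scalings of the libraries. It lost its call in 5 of the 20 fits that left out 1 library. Basophil, mast cell and eosinophil markers held 2 tested genes, 0 called by limma and 1 at an unadjusted p under 0.05. Their summed level was 1.90 to 11.5 in Mx1-Cre PBS, 3.37 to 9.598 in P95H PBS, 1.73 to 4.35 in Mx1-Cre PHZ and 4.37 to 6.196 in P95H PHZ, so the genotypes overlapped under PBS and did not under PHZ. The part of these other cell types in the results was not tested, apart from the granulocyte and monocyte covariate below. In bulk samples such as these, fewer cells of a type and less RNA per cell cannot be told apart.

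Under PBS alone 161 genes were called (1.48% of those tested), 39 higher and 122 lower in P95H, and under PHZ alone 596 (5.47%), 120 higher and 476 lower. The averaged contrast called 290 genes higher (2.66%) and 858 lower (7.88%) in P95H. Only 36 of the higher and 35 of the lower genes moved by more than 0.5 on the log2 scale, so most of the averaged effect consisted of small shifts. Of the 1148 calls, 84 were also called under both treatments, 76 under PBS and not PHZ, and 433 under PHZ and not PBS. In the other direction, 1 gene called under PBS and 79 called under PHZ missed the averaged call, and 33 of those 79 had the opposite sign under PBS. All comparisons draw on the same libraries, so the averaged and single results are not independent.

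The split between higher and lower calls depended on how the libraries were scaled. As deposited, 25.3% of the averaged calls were higher in P95H, and the median log2 fold change of all 10890 genes was -0.04. With TMM factors the contrast called 408 genes higher and 427 lower (48.9% higher), with quantile normalization 394 and 406 (49.3%), and with the factor of each library divided out 331 and 448 (42.5%). These scalings moved the median of all genes by 0.029 to 0.040. Under PHZ alone they called 277 to 341 genes, against 596 as deposited. Of the 290 higher calls, 238 were called under all 3 other scalings, whereas of the 858 lower calls 336 were and 355 were called under none. All 84 genes called in both treatments were called under all 3.

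**Figure D1:**
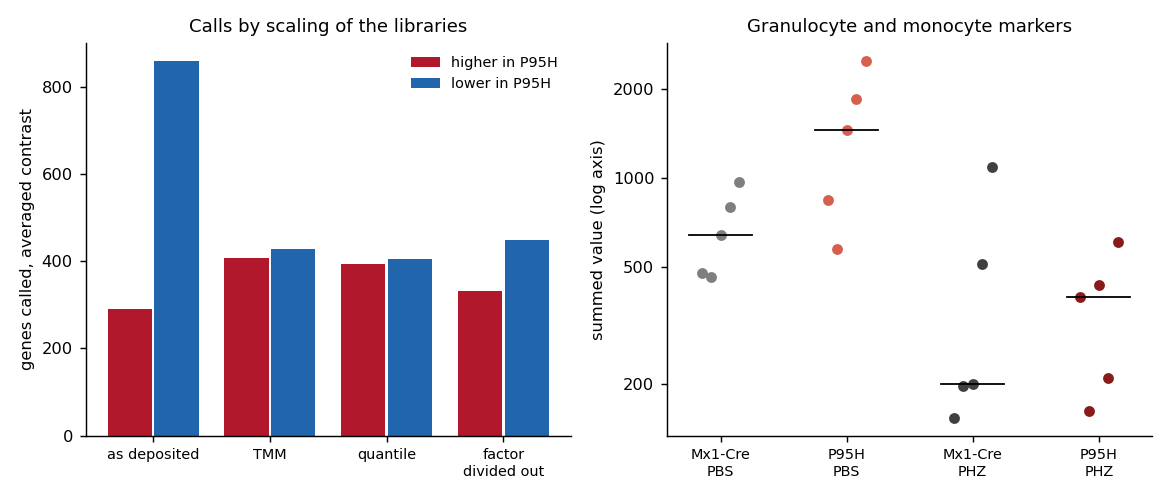
Left, number of genes called higher (red) and lower (blue) in P95H in the averaged contrast, as deposited and under 3 other scalings of the libraries. The excess of lower over higher genes, 858 against 290 as deposited, shrinks to 427 against 408 with TMM factors. Right, summed deposited value of 20 granulocyte and monocyte markers in each library, on a log axis, with the group median as a line. The medians are 641 in Mx1-Cre PBS, 1448 in P95H PBS, 200 in Mx1-Cre PHZ and 395 in P95H PHZ, and the ranges of the genotypes overlap under both treatments.

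The 555 genes called only in the averaged contrast comprised 157 higher (1.44%) and 398 lower (3.65%) in P95H. Their median absolute log2 fold change was 0.207 (quartiles 0.163 and 0.270), against 0.266 for the 593 genes also called under a single treatment and 0.0743 over all genes tested. All 555 had the same sign under both treatments, as did 64.4% of all genes. Their lowest adjusted p was 0.0534 under PBS and 0.0501 under PHZ, so they lay on the uncalled side of both. In 301 of them the unadjusted p was under 0.05 in both treatments, in 125 under PBS alone and in 129 under PHZ alone. The averaging lowered the standard error of each gene by a factor of 1.41, and the unadjusted p needed for a call was 0.00527 in the averaged contrast, 0.000734 under PBS and 0.00271 under PHZ. These figures describe the selection and are no separate evidence for its members.

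Libraries of the 2 genotypes overlapped for most of these genes. Their groups did not overlap under PBS in 98 of 555 genes (17.7%, against 3.67% of all genes tested), under PHZ in 86 (15.5% against 6.95%) and in the same direction under both treatments in 8 (1.44% against 1.22%). In 379 (68.3%, against 90.6% of all genes tested) they overlapped under both. The difference between the treatment effects, tested as an interaction, called 0 of 10890 genes in limma (lowest adjusted p = 0.798, 577 genes at an unadjusted p under 0.05), and none of the 555 reached an unadjusted p of 0.05. The rule that picked the 555, an averaged call and no call under either treatment, favours genes with like effects under both. The result for the 555 is thus largely set by the selection and is no evidence of equal effects. A missing interaction call does not show that the effects were equal.

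Under other scalings, 166 of the 555 were called with all 3, 113 of the 157 higher and 53 of the 398 lower, and 259 of the lower genes with none. In each of the 20 fits that left out 1 library, between 333 and 472 of the 555 stayed called in the averaged contrast, and 253 stayed called in every such fit. With a covariate for the mean granulocyte and monocyte marker level 311 stayed called, and without P95H PBS replicates 4 and 5 240 did. Over 33 alternatives that tested the same genes, 86 of the 555 kept their call throughout, 38 higher and 48 lower. Below, a gene is said to be kept throughout when the averaged contrast called it under all 33.

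**Figure D2:**
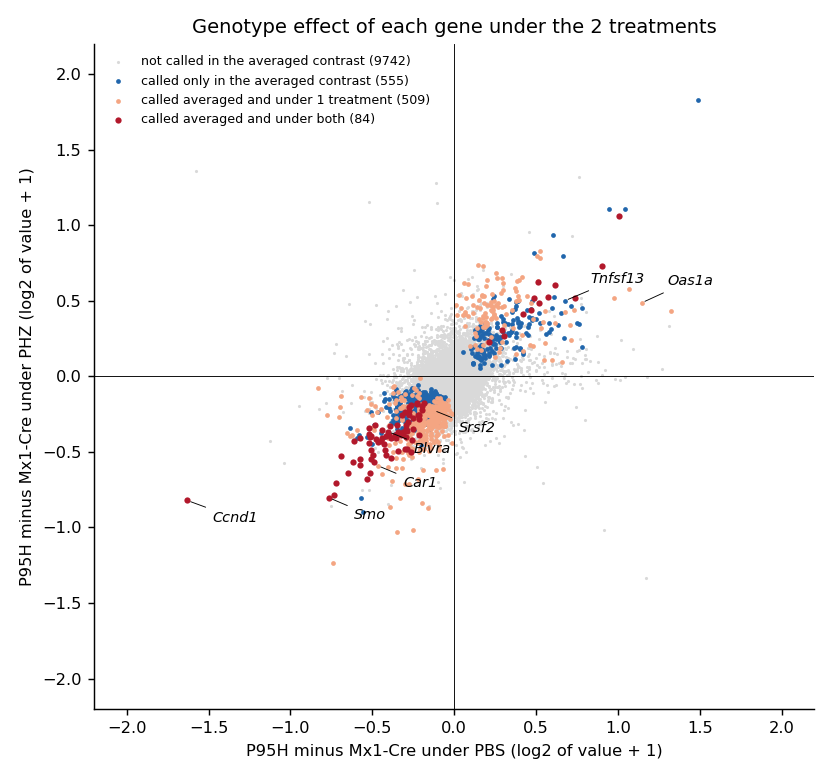
Log2 difference between P95H and Mx1-Cre under PBS (horizontal) and under PHZ (vertical) for each of 10890 genes. The 555 genes called only in the averaged contrast (blue) lie along the diagonal at small size, with a median absolute averaged change of 0.207. This position follows largely from the rule that picked them. The 84 genes called under both treatments (dark red) lie further out, down to Ccnd1 at -1.63 and -0.82.

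Srsf2 itself was lower in P95H. Its values were 727, 646, 690, 656 and 677 in the Mx1-Cre PBS libraries against 648, 563, 604, 693 and 605 in P95H PBS, and 698, 631, 673, 695 and 727 in Mx1-Cre PHZ against 590, 567, 610, 599 and 564 in P95H PHZ. The genotypes overlapped under PBS, and under PHZ all 5 P95H libraries were below every control. The averaged log2 fold change was -0.18 (SE 0.0387, adjusted p = 0.0053, 10 libraries per genotype), called also under all 3 other scalings (adjusted p up to 0.026). An exact two-sided permutation test of the difference within treatment, over 63504 relabellings, gave p = 0.000535. The same exact test gave p = 0.0794 under PBS and p = 0.00794, the smallest it can give, under PHZ. These values do not check the genotype, since expression per gene does not show the base change. Srsf2 lies on chromosome 11, 116849901 to 116853094 on the minus strand (GRCm38). The other 9 SR splicing factors tested held 0 calls in limma, with 4 of all 10 at an unadjusted p under 0.05, Srsf2 included. Over all genes tested, 2859 of 10890 were under that value.

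Fyn, a Src family kinase that the series title names, did not pass the test (averaged log2 fold change 0.0093, SE 0.0674, adjusted p = 0.951). Its exact permutation p was 0.886, and its sign turned in 6 of the 20 fits that left out 1 library. Of 4 further genes reported elsewhere as splicing targets of mutant SRSF2, the chromatin modifier Ezh2 (-0.05, adjusted p = 0.354), the Integrator subunit Ints3 (0.01, adjusted p = 0.893), the protease Casp8 (-0.10, adjusted p = 0.204) and the corepressor Bcor (-0.11, adjusted p = 0.218) were not called. In the longer list of 17 tested genes reported as such targets, 1 was higher, Hnrnpa2b1, and 1 lower, Gnas. This share of calls, 11.8%, is near the 10.5% of all genes, and the median was -0.06 against -0.04 over all genes. Gnas was called under none of the other scalings and lost its call in 14 of the 20 fits that left out 1 library.

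Tnfsf13, which encodes the cytokine APRIL, a survival factor for plasma cells, led the 12 increases named among genes that only the averaged contrast called (mean value of at least 5, predicted genes and pseudogenes left out). It was at 12.3, 16.8, 22.2, 10.8 and 9.83 in Mx1-Cre PBS and at 23.4, 22.5, 21.4, 22.4 and 23.1 in P95H PBS. After PHZ it was at 17.4, 14.3, 11.1, 9.55 and 12.2 in Mx1-Cre and at 24.04, 15.7, 17.4, 22.5 and 13.8 in P95H. The 5 P95H PBS libraries were close together and high, and only Mx1-Cre PBS replicate 3 reached into their range, while the PHZ groups overlapped more. The averaged log2 fold change was 0.59 (SE 0.132, adjusted p = 0.00701), against adjusted p = 0.0775 under PBS and 0.121 under PHZ, and the call was kept throughout. Tnfsf13 lies on chromosome 11, 69682846 to 69685784 on the minus strand, inside the span of Tnfsf13os, an antisense gene at 69682138 to 69691141 on the plus strand. Tnfsf13os rose too (0.82, SE 0.121, adjusted p = 0.000195), with no overlap under either treatment. The use of strand in counting is not given here, so reads from the 2 genes cannot be told apart.

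Folr1, a folate receptor of the cell surface, and Ass1, which makes argininosuccinate from citrulline and aspartate, rose by similar amounts. Folr1 was at 3.29, 4.86, 4.67, 3.77 and 5.31 in Mx1-Cre PBS, at 7.82, 6.68, 6.41, 7.14 and 5.28 in P95H PBS, at 8.61, 13.1, 14.1, 11.1 and 7.77 in Mx1-Cre PHZ and at 14.1, 17.8, 14.7, 14.8 and 12.1 in P95H PHZ. Under PBS a single P95H library, replicate 5, fell below the highest control, and the PHZ groups overlapped. Its averaged log2 fold change was 0.47 (SE 0.099996, adjusted p = 0.00433). Ass1 was at 17.7, 22.7, 20.4, 16.8 and 23.7 in Mx1-Cre PBS, at 30.1, 23.3, 37.8, 26.9 and 36.8 in P95H PBS, at 21.9, 28.9, 34.5, 35.7 and 36.1 in Mx1-Cre PHZ and at 33.1, 41.3, 40.7, 50.6 and 35.0 in P95H PHZ. Its log2 fold change was 0.46 (SE 0.106, adjusted p = 0.00795). Both calls were kept throughout.

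Cela1, a serine protease of the elastase family, and Nrgn, a calmodulin-binding protein best known in neurons, were kept throughout as well. Cela1 was at 118, 122, 116, 179 and 120 in Mx1-Cre PBS, at 161, 139, 149, 233 and 162 in P95H PBS, at 74.4, 71.5, 73.7, 62.7 and 85.2 in Mx1-Cre PHZ and at 103, 83.3, 90.0, 104 and 96.5 in P95H PHZ. Replicate 4 stood highest in both PBS groups, and without that control library every P95H PBS value would exceed every control. Its averaged log2 fold change was 0.37 (SE 0.0903, adjusted p = 0.0124), and that of Nrgn 0.44 (SE 0.112, adjusted p = 0.0147). Of the other genes in the leading 12, Zg16 (0.45), a lectin-like secretory granule protein, Gpsm3 (0.36), a regulator of G protein signalling, Tinagl1 (0.33), an extracellular matrix protein, and Acap1 (0.33), a GTPase-activating protein for ARF6, were called under all 3 other scalings but not without P95H PBS replicates 4 and 5 (adjusted p = 0.0512, 0.0824, 0.0559 and 0.102). Acap1 was also not called with the granulocyte marker covariate (adjusted p = 0.0797) and lost its call when replicate 1 or 3 of Mx1-Cre was left out in either treatment (adjusted p up to 0.0547). Snhg3 (0.33), a small nucleolar RNA host gene, lost its call in 14 of the 20 fits that left out 1 library (adjusted p up to 0.0843). The entry with the largest change of all 555, Gm10698 at 1.66, is a processed pseudogene outside the rule for named genes, and its values overlap widely (0.591 ± 0.343, SD, n = 5, in Mx1-Cre PBS, 5.60 ± 6.18 in P95H PBS, 1.76 ± 1.35 in Mx1-Cre PHZ and 11.9 ± 10.7 in P95H PHZ).

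**Figure D3:**
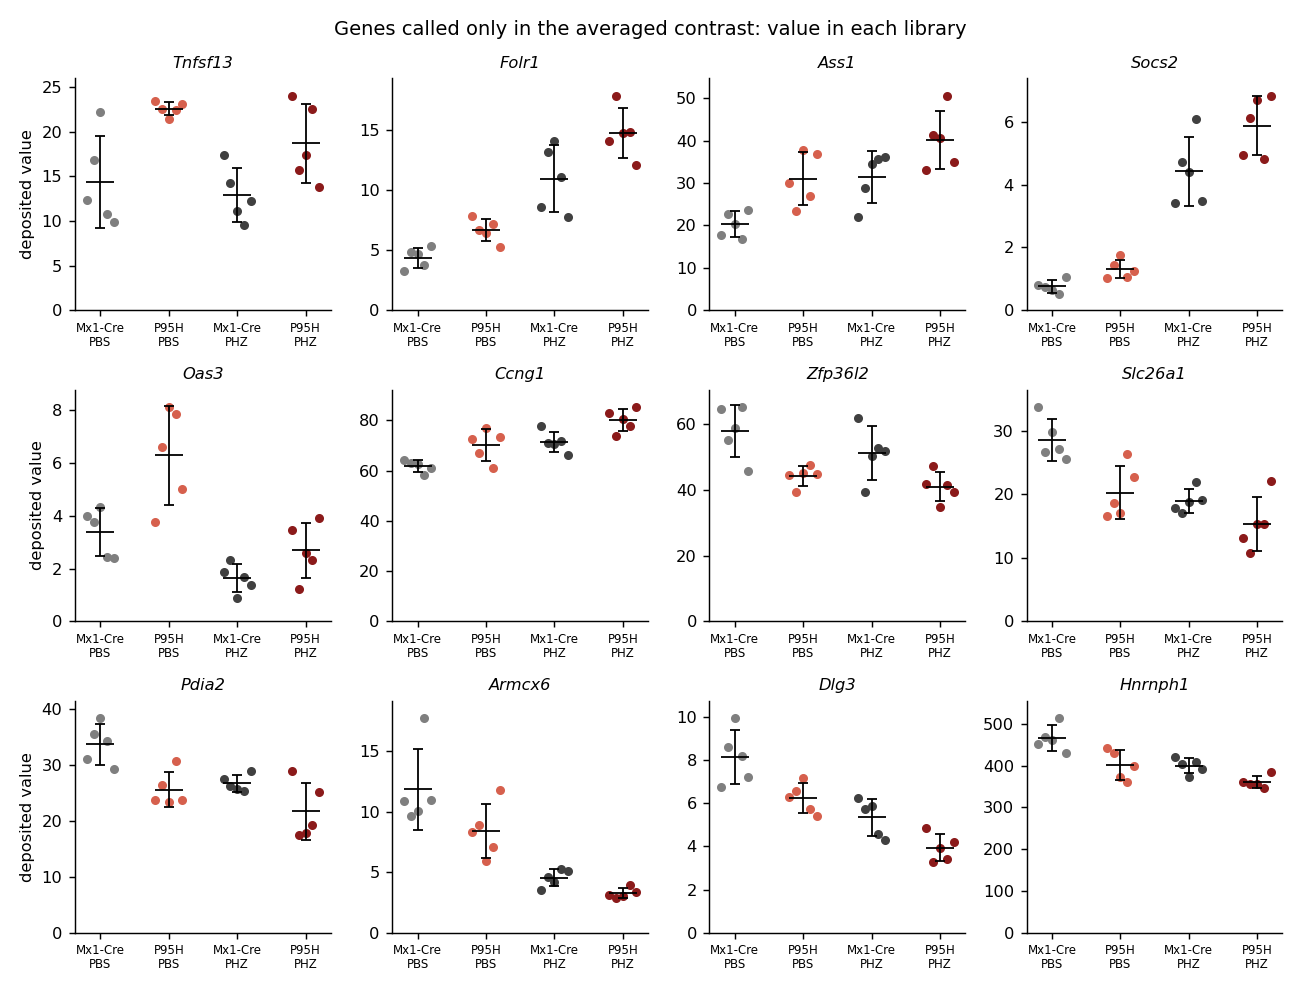
Deposited value in each library for 12 genes called only in the averaged contrast and kept throughout, with 5 libraries per group, the group mean (horizontal mark) and SD (bars). In each gene the 2 P95H groups lie to the same side of their controls while single libraries overlap, as in Tnfsf13, where Mx1-Cre PBS replicate 3 at 22.2 reaches the P95H PBS range of 21.4 to 23.4.

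Among decreases that only the averaged contrast called, Zfp36l2, an RNA-binding protein that destabilises AU-rich mRNAs and is needed for self-renewal of early erythroid progenitors, had the smallest p of the 12 named. Its values were 64.6, 55.2, 59.0, 65.4 and 45.9 in Mx1-Cre PBS, 44.6, 39.5, 45.3, 47.8 and 44.8 in P95H PBS, 62.1, 39.3, 50.3, 52.7 and 52.0 in Mx1-Cre PHZ and 42.0, 47.3, 34.9, 41.5 and 39.5 in P95H PHZ. A single control library in each treatment, Mx1-Cre PBS replicate 5 and Mx1-Cre PHZ replicate 2, lay in the P95H range. The averaged log2 fold change was -0.34 (SE 0.0735, adjusted p = 0.00491), with adjusted p = 0.0779 under PBS and 0.0868 under PHZ, and the call was kept throughout.

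Slc26a1, a sulphate and oxalate exchanger, was at 33.8, 26.7, 29.7, 27.1 and 25.6 in Mx1-Cre PBS, at 16.7, 18.6, 17.1, 26.3 and 22.7 in P95H PBS, at 17.9, 17.0, 18.7, 21.9 and 19.1 in Mx1-Cre PHZ and at 13.1, 10.8, 15.3, 15.3 and 22.1 in P95H PHZ. In each treatment 4 of 5 P95H libraries lay below every control (averaged log2 fold change -0.41, SE 0.101, adjusted p = 0.0128). Pdia2, a protein disulphide isomerase, fell by 0.35 on the log2 scale (SE 0.0796, adjusted p = 0.00694), from 33.7 ± 3.67 to 25.6 ± 3.11 under PBS and from 26.7 ± 1.46 to 21.7 ± 5.06 under PHZ (SD, n = 5 per group). Dlg3, a scaffold protein of the membrane-associated guanylate kinase family encoded on the X chromosome, fell by 0.35 (SE 0.0787, adjusted p = 0.00653), and Dnajb3, a J-domain cochaperone, by 0.47 (SE 0.113, adjusted p = 0.0106). Armcx6, an X-linked armadillo repeat gene, fell by 0.41 (SE 0.107, adjusted p = 0.0166). Mx1-Cre PBS replicate 4 stood high for Armcx6, at 17.8 against 9.62 to 10.96 in the other controls, and without it the fall was 0.34 and still called. All 5 of these decreases were kept throughout.

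The other named decreases were less stable. Bloc1s4, a subunit of a lysosome-related organelle complex (-0.36), and Tctex1d2, a dynein light chain (-0.33), were called under 2 of 3 other scalings. Hist1h2ao (-0.68) was called under 1, and this replication-dependent H2A gene has near-identical copies between which reads could have been split, so its value is uncertain. Cetn4, a centrin (-0.38), Selenop, the selenium carrier (-0.33), and Zscan26, a zinc finger protein (-0.31), were called under none (adjusted p up to 0.0844, 0.0769 and 0.0874). Each of Hist1h2ao, Cetn4, Selenop and Zscan26 also lost its call in 7 to 13 of the 20 fits that left out 1 library.

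Interferon-stimulated genes held increases and no decrease. Of 40 tested, 6 rose and 0 fell (15% called, against 10.5% of all genes), 36 had a positive fold change, and the median was 0.17 against -0.04 over all genes. The median was 0.31 under PBS and 0.06 under PHZ, and it stayed between 0.20 and 0.22 under the other scalings, which called 6 to 8 members higher and none lower. Both genotypes carried Mx1-Cre. The 6 genes are Oas1a and Oas3, which make 2′-5′ oligoadenylate and so activate RNase L, Rsad2, the antiviral enzyme viperin, Herc6, an ISG15 ligase, Rtp4, a chaperone of membrane receptors, and Irf7, a transcription factor that amplifies interferon responses. Interferon acts on such genes through the complex ISGF3, which binds a paired GAAA element in their promoters.

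The promoter windows of RefSeq (GRCm38.p6, 250 bases before to 50 after the start) were searched in the 250 upstream bases for GAAANNGAAA on both strands, overlapping matches counted, because this is the core of the element that ISGF3 binds. It occurred in 255 of 8261 tested genes that have a window (3.09%), in 12 of 32 interferon-stimulated genes tested (37.5%) and in 3 of the 5 called ones that have a window. Rtp4 has no entry in the table. The stretches around the 3 matches are printed 5′ to 3′ on the strand of the gene, with the matches in capitals. In Oas1a 2 overlapping matches form the run of capitals, and in Rsad2 the capitals hold the motif on the opposite strand. Oas1a lies at chr5:120907526-120907564, Oas3 at chr5:120777700-120777759 and Rsad2 at chr12:26456538-26456597, all on the minus strand.
Oas1a: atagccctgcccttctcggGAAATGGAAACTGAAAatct
Oas3: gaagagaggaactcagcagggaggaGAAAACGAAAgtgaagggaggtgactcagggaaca
Rsad2: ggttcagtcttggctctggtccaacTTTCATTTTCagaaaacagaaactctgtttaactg
The matches end 4, 65 and 110 bases before the annotated start. The upstream windows of Herc6 and Irf7 hold no match, which says only that these letters are not in the window.

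Oas3 and Rsad2 were called only in the averaged contrast, and Oas1a under PBS as well. Oas3 was at 3.99, 3.76, 4.34, 2.45 and 2.39 in Mx1-Cre PBS, at 3.77, 6.60, 8.12, 7.86 and 5.02 in P95H PBS, at 1.88, 2.30, 0.898, 1.67 and 1.39 in Mx1-Cre PHZ and at 3.44, 1.23, 2.59, 2.31 and 3.90 in P95H PHZ. Under each treatment 4 of 5 P95H libraries lay above every control, and replicate 1 under PBS and replicate 2 under PHZ did not (0.59, SE 0.150, adjusted p = 0.0153). Oas1a was at 12.8, 9.07, 12.8, 9.33 and 9.07 in Mx1-Cre PBS, at 19.2, 23.9, 28.4, 30.5 and 21.7 in P95H PBS, at 4.62, 7.37, 2.23, 3.53 and 2.86 in Mx1-Cre PHZ and at 7.85, 2.52, 6.402, 8.92 and 5.27 in P95H PHZ. Its groups were apart under PBS (1.14, adjusted p = 0.0294) and overlapped under PHZ (0.49, adjusted p = 0.281), with an average of 0.82 (SE 0.182, adjusted p = 0.00705). Rsad2, named for its promoter and outside the rule for named genes, went from 3.17 ± 0.668 to 4.43 ± 0.896 under PBS and from 1.59 ± 0.554 to 2.64 ± 0.658 under PHZ (0.44, SE 0.114, adjusted p = 0.0161). All 3 calls were kept throughout.

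Herc6 rose by 0.39 on the log2 scale (SE 0.0593, adjusted p = 0.000277), with no overlap under either treatment, and Rtp4 by 0.88 (SE 0.184, adjusted p = 0.0043). Irf7 passed narrowly (0.44, SE 0.138, adjusted p = 0.0479). Its highest value was 34.8 in P95H PBS replicate 4, and it lost its call under 1 scaling and in 12 of the 20 fits that left out 1 library (adjusted p up to 0.0818). Outside the list, Ifitm3, an interferon-induced membrane protein that blocks viral entry, rose by 0.75 (adjusted p = 0.00159) with no overlap under either treatment, and Uba7, the ISG15-activating enzyme, by 0.35 (adjusted p = 0.0342). Uba7 lost its call in 9 fits that left out 1 library (adjusted p up to 0.058). MHC class I and antigen processing genes held 0 calls of 21 in limma (median 0.04, 0 at an unadjusted p under 0.05). Granulocyte and monocyte markers moved in the same direction as the interferon-stimulated genes, with 17 of 17 tested members positive, a median of 0.46 (0.83 under PBS and 0.03 under PHZ) and 1 call, Itgam (0.46, adjusted p = 0.0204). With their mean as a covariate, the adjusted p was 0.0142 for Oas1a, 0.0377 for Oas3, 0.000769 for Herc6, 0.0129 for Rtp4 and 0.0765 for Irf7.

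p53 targets held calls in both directions. Of 26 tested, 6 rose and 4 fell (38.5% called, against 10.5% of all genes, median 0.03), and 7 of these 10 were called under all 3 other scalings. The increases were Cdkn1a, the p21 inhibitor of cyclin-dependent kinases, Zmat3, an RNA-binding p53 target, Ccng1, cyclin G1, Dglucy, Phlda3, an AKT inhibitor, and Bloc1s2. Ccnd1, cyclin D1, which drives entry into S phase, had the largest decrease of the averaged contrast. It was at 5.91, 3.41, 4.52, 7.85 and 8.33 in Mx1-Cre PBS against 1.35, 1.22, 1.07, 1.32 and 0.952 in P95H PBS, and at 0.466, 1.03, 2.75, 1.13 and 1.26 in Mx1-Cre PHZ against 0.173, 0.623, 0.150, 0.177 and 0.207 in P95H PHZ. The groups were apart under PBS, and under PHZ they overlapped through Mx1-Cre replicate 1 and P95H replicate 2 (average -1.23, SE 0.145, adjusted p = 1.82e-05). The other decreases were Ddb2, Xpc and Ercc5, which act in nucleotide excision repair (-0.22, -0.19 and -0.11). These 3 were called under none of the other scalings.

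Ccng1 and Cdkn1a were called only in the averaged contrast. Ccng1 was at 64.2, 63.3, 62.8, 58.4 and 60.9 in Mx1-Cre PBS, at 72.7, 67.0, 77.0, 61.2 and 73.4 in P95H PBS, at 77.6, 71.2, 70.5, 71.8 and 66.5 in Mx1-Cre PHZ and at 83.2, 74.0, 80.4, 77.9 and 85.5 in P95H PHZ. The shift was small beside the level but in the same direction in both treatments (0.17, SE 0.0415, adjusted p = 0.0111), and the call was kept throughout. Cdkn1a was at 1.12, 1.55, 0.831, 0.281 and 0.872 in Mx1-Cre PBS, at 3.62, 0.659, 2.68, 1.78 and 3.51 in P95H PBS, at 2.1998, 2.77, 2.46, 1.8003 and 1.95 in Mx1-Cre PHZ and at 4.10, 2.28, 3.25, 2.96 and 4.93 in P95H PHZ. In each treatment P95H replicate 2 lay within the controls and the other 4 lay above them (0.62, SE 0.165, adjusted p = 0.0196), and the call was lost without P95H PBS replicates 4 and 5 (adjusted p = 0.0542) and after adding the granulocyte covariate (adjusted p = 0.0514). Zmat3 (0.52, SE 0.0948, adjusted p = 0.00112) and Dglucy (0.49, SE 0.0924, adjusted p = 0.00159), called under PBS as well, were kept throughout.

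In the hnRNP family, RNA-binding proteins that often oppose SR proteins, 1 of 27 rose and 4 fell (18.5% called, against 10.5% of all genes, median -0.05 against -0.04). Under the other scalings 1 was higher and 2 were lower. Hnrnpa2b1 rose by 0.21 (SE 0.0400, adjusted p = 0.00161), from 1581 ± 137 to 1808 ± 60.1 under PBS and from 1389 ± 43.6 to 1628 ± 100 under PHZ. Hnrnph1, called only in the averaged contrast and kept throughout, was at 452, 468, 461, 514 and 429 in Mx1-Cre PBS, at 443, 430, 373, 361 and 398 in P95H PBS, at 420, 404, 373, 409 and 392 in Mx1-Cre PHZ and at 361, 355, 355, 347 and 385 in P95H PHZ. In each treatment 3 or more of its P95H libraries lay below every control (-0.18, SE 0.0415, adjusted p = 0.00705). Hnrnpdl fell by 0.23 (adjusted p = 0.00247) and was kept throughout, whereas Hnrnpll (-0.10) lost its call under all 3 other scalings. Hnrnph3 fell as well (-0.18, adjusted p = 0.0453).

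Of 23 SR protein kinases and cofactors 0 rose and 3 fell, the kinases Clk3, Srpk1 and Dyrk1a, which phosphorylate SR proteins (13.0% called, near the 10.5% of all genes, median -0.06). Clk3 fell by 0.29 (SE 0.0478, adjusted p = 0.000637), from 42.4 ± 1.498 to 35.9 ± 1.27 under PBS and from 38.9 ± 1.78 to 30.8 ± 4.36 under PHZ, and was kept throughout. Srpk1 (-0.16) and Dyrk1a (-0.17) were called only in the averaged contrast and under none of the other scalings. Among 81 core spliceosome genes 0 rose and 3 fell (3.7% called, below the 10.5% of all genes), the helicase Ddx46 (-0.18, adjusted p = 0.000755, kept throughout), Isy1 and Aqr. Their median of -0.04, like that of all genes, turned to 0.0024 with TMM factors, which called 3 higher and 1 lower. Of 25 nonsense-mediated decay genes 2 fell (8% called, below the 10.5% of all genes), Secisbp2 (-0.19) and Ruvbl1 (-0.24), and both were called under all 3 other scalings. In the list for R-loop resolution and the ATR checkpoint, 1 of 43 rose, Rnaseh2a, the catalytic subunit of RNase H2 (0.24, adjusted p = 0.00513), and 5 fell, led by Hexim1, an inhibitor of P-TEFb (-0.26, adjusted p = 0.00303), and Atr, the checkpoint kinase (-0.21, adjusted p = 0.0106). Rnaseh2a and Hexim1 were called under all 3 other scalings, and Atr under 2.

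Erythropoietin signalling genes split. Of 22 tested, 2 rose and 2 fell (18.2% called, against 10.5% of all genes, median 0.05). Socs2, a STAT5-induced feedback inhibitor of cytokine receptors, was called only in the averaged contrast, at 0.799, 0.735, 0.657, 0.529 and 1.07 in Mx1-Cre PBS, 1.04, 1.46, 1.75, 1.06 and 1.25 in P95H PBS, 3.41, 4.70, 4.39, 6.10 and 3.48 in Mx1-Cre PHZ and 4.95, 6.12, 6.67, 4.80 and 6.83 in P95H PHZ. Mx1-Cre PBS replicate 5 and Mx1-Cre PHZ replicate 4 lay in the P95H range, and the other controls lay below it (0.37, SE 0.0917, adjusted p = 0.0113, kept throughout). Ptpn6, the phosphatase SHP-1 that dephosphorylates the activated receptor complex, rose by 0.15 (adjusted p = 0.0284). It lost its call without Mx1-Cre PBS replicate 3 or 5, P95H PBS replicate 4 or 5, or replicate 1 of Mx1-Cre PHZ (adjusted p up to 0.0593). Nor was Ptpn6 called with the granulocyte marker covariate (adjusted p = 0.0873) or without both P95H PBS replicates 4 and 5 (adjusted p = 0.124). Gab1, a docking protein below the receptor, fell by 0.32 (adjusted p = 0.00179, kept throughout). Stat5b fell by 0.19 (adjusted p = 0.0125). Under the other scalings its fold change was -0.15 to -0.16 and it was not called (adjusted p up to 0.0745).

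The mTORC1 pathway, also named in the title of the series, held 1 increase and 3 decreases among 51 components (7.84% called, against 10.5% of all genes, median -0.07 against -0.04). Rheb, the GTPase that activates mTORC1, rose by 0.10 (SE 0.0317, adjusted p = 0.0382), and lost its call in 13 of the 20 fits that left out 1 library (adjusted p up to 0.0793). Pik3r2, a regulatory subunit of PI3 kinase, fell by 0.18 (adjusted p = 0.00368) and was kept throughout. Rps6kb2, a ribosomal protein S6 kinase (-0.15), and Wdr24, a subunit of the GATOR2 amino acid sensor (-0.13), fell and were called under none of the other scalings.

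Erythroid genes showed single decreases, and each of the 5 lists in this paragraph held a smaller share of calls than the 10.5% of all genes (9.09%, 6.9%, 5%, 0% and 4% in the order given). Of 22 erythroid transcription factors 2 fell, Myb and Mafg, and none was called under any other scaling. Of 29 genes in the red cell membrane and blood group list 2 fell, and 1 of them, Car1, encodes a cytosolic enzyme. Car1, carbonic anhydrase 1, was at 4224, 3945, 3956, 4125 and 3796 in Mx1-Cre PBS against 2876, 2175, 2779, 3795 and 3096 in P95H PBS, and at 3979, 2749, 3931, 3360 and 4103 in Mx1-Cre PHZ against 2606, 2710, 1984, 2262 and 2411 in P95H PHZ. No library overlapped in either treatment, by a margin of 3796 against 3795 under PBS (average -0.53, SE 0.0859, adjusted p = 0.000557). Cd55, a complement regulator on red cells, fell by 0.16 (adjusted p = 0.00628) but was called under none of the other scalings. Of 20 haem synthesis and turnover genes 1 fell, Blvra, biliverdin reductase (-0.38, SE 0.0464, adjusted p = 1.97e-05), with no overlap under either treatment. Globins held 0 calls of 4 in limma, with 0 at an unadjusted p under 0.05 (Hbb-bs 0.24, adjusted p = 0.604). Of 25 genes of iron uptake, storage and sensing 1 fell, the mitochondrial iron importer Slc25a28 (-0.18), which was called under 1 of the 3 other scalings.

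**Figure D4:**
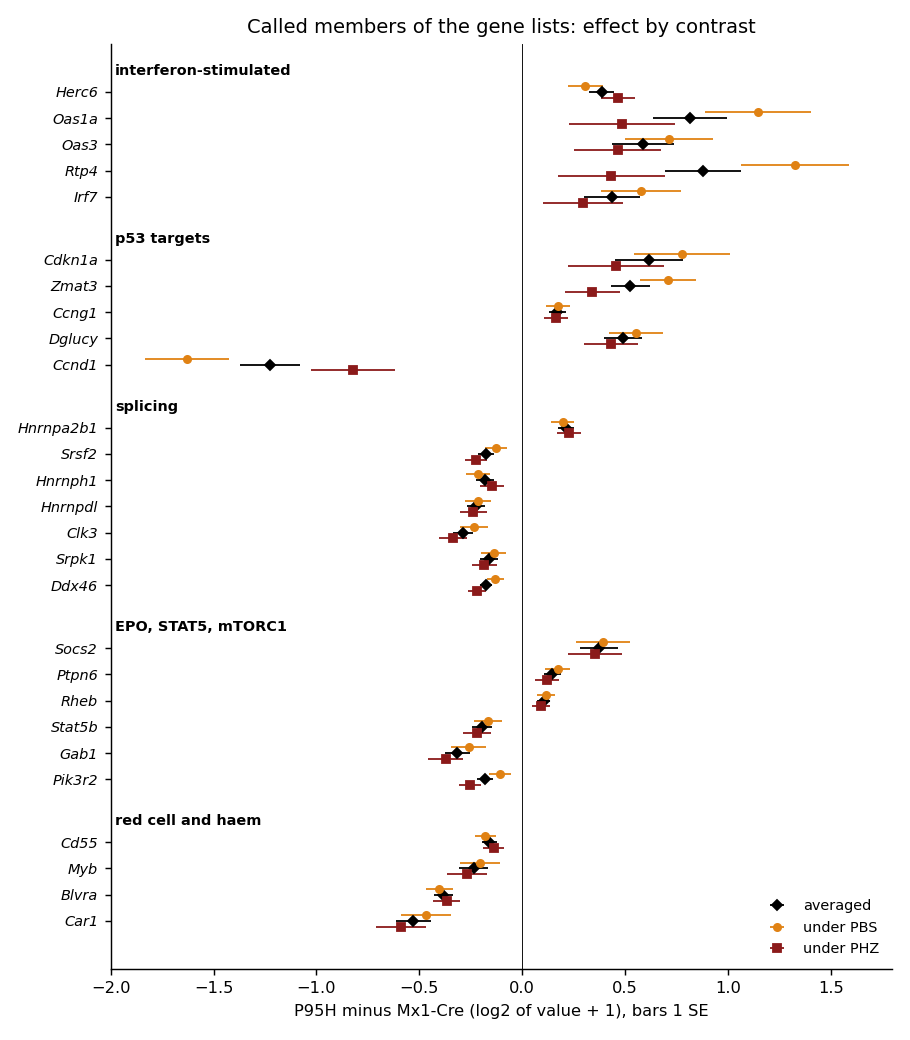
Log2 difference between P95H and Mx1-Cre for a selection of the called members of 5 groups of genes, averaged over treatments (black), under PBS (orange) and under PHZ (dark red), with bars of 1 SE. Called members not drawn include Rsad2, the p53 targets Phlda3, Bloc1s2, Ddb2, Xpc and Ercc5, and Hnrnph3, Hnrnpll, Dyrk1a, Isy1 and Aqr. The averaged estimates lie between the single ones with shorter bars, from Ccnd1 at -1.23 to Rtp4 at 0.88. Under PHZ Oas1a, Oas3, Rtp4 and Irf7 lie closer to 0 than under PBS and Herc6 lies further from it, and the difference between treatments was called in no gene.

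Metabolic lists held shares of calls near or below that of all genes (10.5%, with 7.88% lower). Of 77 oxidative phosphorylation subunits 4 fell (5.19%), all complex I subunits (Ndufb8, -0.30, Ndufb2, -0.25, Ndufb4, -0.17, and Ndufb11, -0.16), and Ndufb8 and Ndufb2 were kept throughout. The list's median of -0.03 turned to 0.01 with TMM factors. Of 26 glycolysis genes 3 fell (11.5%), the phosphofructokinases Pfkl (-0.25) and Pfkm (-0.13) and the red cell pyruvate kinase Pklr (-0.19), and Pfkm was called under none of the other scalings. In cholesterol synthesis (10.3% called) 1 of 29 rose, Insig2 (0.21), a brake on SREBP processing, and 2 fell, Dhcr7 (-0.33) and Pmvk (-0.26), enzymes of the pathway that were kept throughout. Insig2 lost its call in 9 of the 20 fits that left out 1 library (adjusted p up to 0.0685). Nor was Insig2 called with the granulocyte marker covariate (adjusted p = 0.0567) or without P95H PBS replicates 4 and 5 (adjusted p = 0.0808). The list's median was -0.11, with -0.03 under PBS and -0.25 under PHZ. By limma 0 members were called among 13 genes of mitochondrial DNA, 27 ATF4 and amino acid response genes, 27 unfolded protein response genes and 57 DNA replication genes, with 0, 4, 1 and 8 at an unadjusted p under 0.05. Over all genes tested, 2859 of 10890 were under that value. Pycr1, an enzyme of proline synthesis in the ATF4 list, missed the averaged call (0.20, adjusted p = 0.0508) and passed under PHZ alone (adjusted p = 0.0433).

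Other lists held 1 to 3 calls each, and 10.5% of all genes were called. Cytosolic ribosomal proteins held 1 of 78 (Rpl35, -0.24), ribosome biogenesis 1 of 71 (Noc3l, -0.17), mitochondrial ribosomal proteins 1 of 77 (Mrpl4, -0.16), translation factors 1 of 47 (Eif4g3, -0.20), mitosis 1 of 66 (Espl1, the separase, -0.20) and the proteasome 1 of 35 (Psma2, 0.14). The medians of the ribosomal protein, mitochondrial ribosomal protein and translation lists, between -0.03 and -0.01, turned positive with TMM factors. With TMM factors the mitochondrial ribosomal protein list held 4 higher and 0 lower calls. Quantile normalization gave it 6 and 0, and the factor divided out 3 and 0. Of the single calls as deposited Eif4g3 was kept throughout, and Psma2 alone of the rest was called under all 3 other scalings. Psma2 lost its call in 8 of the 20 fits that left out 1 library (adjusted p up to 0.0697). The BCL2 family held 3 calls of 25, the survival factor Mcl1 (-0.11) and the BH3-only genes Bik (-0.29) and Bmf (0.25), and each lost its call in 9 or more of the 20 fits that left out 1 library. Histones held 3 of 24, with the linker histone Hist1h1c (0.44) and Hist1h4i (0.23) higher and the variant H3f3b (-0.19) lower, all kept throughout. Near-identical copies make the values of Hist1h4i uncertain. Of 31 antioxidant genes 2 fell, Gsta4, a glutathione transferase (-0.52), and Nfe2l2, which encodes NRF2 (-0.17), and Gsta4 was kept throughout. Autophagy and lysosome genes held 3 decreases of 46 (Becn1, Ctsb and Ctsl), heat shock chaperones 2 of 33 (Dnajc7 and Bag3) and chromatin and signalling genes of myelodysplasia 2 of 37 (Idh2 and Ddx41), none called under all 3 other scalings. Among Src family kinases and their regulators 1 of 15 rose, Ptpn6, and 1 fell, Ptprc, which encodes CD45 (-0.31) and was called under none of the other scalings.

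The genes with the largest averaged effects were mostly called in single treatments too. Smo, the Hedgehog signal transducer, was at 17.6, 17.0, 20.8, 16.1 and 18.4 in Mx1-Cre PBS against 9.20, 9.38, 13.2, 9.20 and 10.2 in P95H PBS, and at 18.5, 15.9, 21.5, 16.7 and 18.4 in Mx1-Cre PHZ against 10.9, 8.76, 10.5, 11.6 and 8.42 in P95H PHZ (-0.78, SE 0.0724, adjusted p = 7.67e-07). Its groups were apart under both treatments. Rbks, ribokinase (-0.76, adjusted p = 2.59e-07), and Slc25a23, a mitochondrial ATP-Mg/phosphate carrier (-0.71, adjusted p = 8.7e-07), were apart under both as well. Marcksl1, an actin-regulating protein (-0.64), was called under both treatments, and Khdrbs3, an RNA-binding splicing regulator (-0.69), and Spon2, an extracellular matrix protein (-0.63), under PHZ. On the higher side stood App, the amyloid precursor protein (0.68), and Dpp7, a lysosomal dipeptidase (0.55).

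At the threshold, the last genes called were Jtb, Vps16 and Zfp296 (adjusted p = 0.05, 0.0498 and 0.05 as rounded) and the first not called Cdc5l, Tceal3 and Zfp931 (adjusted p = 0.0505, 0.0505 and 0.0504). Their log2 fold changes were -0.16, 0.10 and -0.25 on the inside and -0.12, -0.46 and -0.28 on the outside, so the threshold did not sort genes by size of effect.

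The called genes were spread over the genome. On the autosomes between 8.77% and 12.1% of tested genes were called, and on the X chromosome 10.4%. Within 5 Mb of Srsf2, a distance chosen with results of these data known, 19 of 136 genes were called (13.97%, 3 higher), against 80 of 797 on the rest of chromosome 11 (10.04%). Genes called higher had a median level over all libraries of 3.54 and a median transcript length of 2659 bases, against 23.04 and 3193 over all genes, while genes called lower had 25.3 and 3511. Median GC content was 50.9% for higher, 50.2% for lower and 49.4% for all genes. Per kilobase of transcript, the median number of CCNG motifs was 20.8 in genes called higher, 20.1 in genes called lower and 19.3 in all, and that of GGNG motifs 17.7, 18.9 and 17.6.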

How the data were processed

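Gene-level RNA-seq values of 20 libraries were used. The deposited table holds a normalised signal per Ensembl gene identifier, and every value is a whole multiple of 1 smallest step per library (within 0.01 of a step). Read as TPM rounded to 2 decimals times 1 factor per library, this gives factors of 0.940 to 1.10 and sums of 979638 to 992743 once they are divided out. The factors were 1.01 to 1.08 in Mx1-Cre PBS and 0.984 to 1.10 in P95H PBS. After PHZ they were 0.964 to 1.04 in Mx1-Cre and 0.940 to 0.984 in P95H. The submitters' processing notes list Bowtie, RSEM 1.2.4, TopHat, TopHat2 2.0.8b, hg19, GRCh37, mm10 and GRCm38, and the sources used here do not give the role of each, the annotation release or the use of strand. The signal cannot give read counts, so the depth of each value is not known and count models were not used. Symbols and positions come from GENCODE vM21 (GRCm38), which named 35982 of 37748 entries. Columns of per-sample values left unmapped numbered 0.

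The 10890 genes that reached a value of 1 in 5 or more libraries were analysed as log2(value + 1), a scale that understates the change of low genes. A limma 3.58.1 model (R 4.3.3) with 1 mean per group, an intensity trend and robust moderation gave the averaged, PBS, PHZ and interaction contrasts, with Benjamini-Hochberg adjustment over all genes and a threshold of 0.05. The averaged contrast takes genotype within treatment. TMM factors (trims of 0.3 and 0.05) were computed on the signal in base R. Scripts were tested on simulated data. Figures used Python 3.11.15, numpy 2.4.6 and matplotlib 3.10.9.

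Named genes are Srsf2, Fyn, Ezh2, Ints3, Casp8 and Bcor, the 12 largest changes in each direction among genes called only in the averaged contrast and the 6 among genes also called in a single treatment (mean value of at least 5, without predicted genes, pseudogenes and receptor segments), up to 4 called members per list by smallest p, and the 3 genes on each side of the threshold. The contrast, the genes and the 46 lists were chosen with earlier results of these data known. Alternatives comprised other pseudocounts, filters, scalings, models and covariates, and leaving out each library.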

Additional observations from a re-analysis of the deposited data

Results flagged for a closer look

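Of 516 combinations of a named gene and a group, 18 (3.49%) held a library standing far from the other 4, where chance gives about 1 in 20. Mx1-Cre PBS replicate 4 accounted for 6 of them. It was highest for Armcx6 (17.8, next 10.96), Cela1 (179, next 122), Cetn4 (15.97, next 9.25), Gsta4 (18.9, next 11.1) and Rpl35 (3156, next 2576), and lowest for Noc3l (30.1, next 33.6). Without it the averaged log2 fold change was -0.34 for Armcx6 and -0.30 for Cetn4, with both calls kept. Cetn4 lost its call in 10 of the 20 fits that left out 1 library, this one not among them.

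P95H PHZ replicate 5 was highest for Hexim1 (26.6) and for Uba7 (31.2) and lowest for Hnrnpdl (231). Mx1-Cre PHZ replicate 5 was highest for Hnrnpdl (322) and for Vim (2.60). The remaining cases were single. Ccnd1 was highest in P95H PHZ replicate 2 (0.623), Cela1 in P95H PBS replicate 4 (233), Smo in P95H PBS replicate 3 (13.2) and Dglucy in Mx1-Cre PHZ replicate 1 (3.07). Ddx41 was lowest in Mx1-Cre PHZ replicate 2 (52.2), Ddx46 in P95H PBS replicate 2 (110.3) and Isy1 in Mx1-Cre PBS replicate 1 (91.0).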

How the results depend on the processing

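Counts of genes are given here as called under each alternative, and the cause of a change was not tested unless the alternative itself has fewer libraries or another number of genes. Without the filter on low values the averaged contrast called 750 genes higher, 418 genes higher in the averaged contrast alone and 1 gene in the interaction. With a filter at 5 it called 133 and 83 higher. Quantile normalization gave 406 lower, 240 higher and 216 lower in the averaged contrast alone, and 292 under PHZ. TMM factors gave 427 lower, 242 higher and 216 lower in the averaged contrast alone, and 341 under PHZ. Division by the factor of each library gave 448 lower, 262 lower in the averaged contrast alone and 277 under PHZ. Library weights gave 1420 lower, 833 in the averaged contrast alone (647 lower) and 538 under PBS. Without P95H PBS replicates 4 and 5 there were 191 higher, 347 in the averaged contrast alone (86 higher, 261 lower) and 98 under PBS. Leaving out 1 library gave 231 to 299 higher and 667 to 941 lower, 417 to 774 in the averaged contrast alone (124 to 190 higher, 293 to 584 lower), 90 to 180 under PBS, 319 to 696 under PHZ and 0 to 0 in the interaction. The PBS count fell to 92, 92 and 90 without Mx1-Cre PBS replicates 1 and 3 and P95H PBS replicate 5, and the PHZ count to 319 and 331 without Mx1-Cre PHZ replicate 3 and P95H PHZ replicate 3. Srsf2 stayed called, from -0.20 to -0.16. Fyn ran from -0.026 to 0.032, and was -0.028 with the granulocyte covariate and -0.044 without P95H PBS replicates 4 and 5. Ints3 ran from -0.0082 to 0.046, and Cd68 was -0.00021 without P95H PBS replicates 4 and 5. With the replicate block the averaged contrast called 318 genes higher and 923 lower, 594 in the averaged contrast alone. Replicate numbers did not pair the libraries: 13 of 30 same-number pairs had correlated deviations over 0.1, and 4 of 20 libraries correlated best with their own number. The other alternatives (pseudocounts of 0.1 and 5, an additive fit, no intensity trend, no robust moderation, covariates for Xist and for granulocyte markers) kept every count of calls within 1.5 times. Read depth behind the values is unknown, so the precision of low genes cannot be stated.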
